A study of Rattus norvegicus with 5 samples.

Results

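The 7 genes described here, mt-Nd1, mt-Nd2, mt-Nd3, mt-Nd4l, mt-Nd4, mt-Nd5 and mt-Nd6, are the subunits of respiratory complex I that the rat mitochondrial genome encodes. They were taken by their Ensembl identifiers, and all 7 were among the 35495 features listed for 5 microglial RNA libraries. Microglia are the resident macrophages of the brain. Here they came from male Sprague Dawley offspring, whose brains were minced and separated on density gradients, and the RNA was amplified as cDNA before sequencing. By the study's Cd11b staining, most but not all of the cells were microglia. The dams had been injected in the tail vein during gestation with an adenovirus carrying a CYP11A1 cDNA, or with the same adenovirus without it. CYP11A1 is the mitochondrial enzyme that starts steroid synthesis from cholesterol, and the comparison asked what its excess in the mother leaves behind in the microglia of the young. In the vector a viral (CMV) promoter drives the cDNA, which is not restricted to one cell type, and both groups received a vector with green fluorescent protein. Analysed here were 2 control libraries (control 1 and control 3) and 3 from the test group (CYP11A1 1, 2 and 3). The sample labels give an age of 3 months, whereas the methods give a younger age. The labels do not say whether offspring shared a dam, so the tests measure only the spread between these libraries.

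Complex I is the entry point of the respiratory chain. It takes electrons from NADH, hands them to ubiquinone and pumps protons across the inner mitochondrial membrane. Most of its subunits are made from nuclear genes, and the mitochondrial ones form the hydrophobic arm inside the membrane that carries the proton path. The mitochondrial genome is copied into long transcripts from both of its strands, which are then cut into single messengers. Of the 7 genes, 6 are read from the heavy strand promoter, and mt-Nd6 is the only one read in the opposite direction, from the light strand promoter. The messengers of mt-Nd4l and mt-Nd4 stay joined as one RNA with overlapping reading frames.

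The identities were checked against feature lengths, obtained from each pair of count and FPKM (counts scaled by the length of the feature and the total of the library). For every one of the 7 genes the length was the same in all 5 libraries. The lengths were 955 bp for mt-Nd1 (ENSRNOG00000030644), 1039 bp for mt-Nd2 (ENSRNOG00000031033), 348 bp for mt-Nd3 (ENSRNOG00000033615) and 297 bp for mt-Nd4l (ENSRNOG00000031053). For mt-Nd4 (ENSRNOG00000029707) the length was 1378 bp, for mt-Nd5 (ENSRNOG00000029971) 1830 bp and for mt-Nd6 (ENSRNOG00000029042) 519 bp. In the order of these lengths, mt-Nd5 is the longest and mt-Nd4l the shortest, as is known for mammalian mitochondria. The lengths of mt-Nd1, mt-Nd2 and mt-Nd4 leave a remainder of 1 base after division by 3, and the other lengths divide evenly. Several mammalian mitochondrial messengers are known to end in an incomplete stop codon that the poly(A) tail completes.

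The libraries held between 9623896 and 13624545 counts, and between 10766 and 16969 features with a count. Control 1 and CYP11A1 3 had the most counts and the fewest features, so the fits and the shares compared between the groups were also run without them. The 10 most counted features took from 37.5% (CYP11A1 3) to 65.4% (CYP11A1 1) of a library. TMM factors, by which edgeR corrects for such differences in composition, ran from 0.615 in CYP11A1 1 to 1.35 in CYP11A1 2. Because the identifiers are not paired with gene symbols in the sources used here, markers of microglia and other cells and the nuclear complex I genes were not analysed here.

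The 7 genes together took 6.90% of the counts in control 1 and 6.58% in control 3. In the CYP11A1 group they took 7.06%, 5.16% and 4.48% in libraries 1, 2 and 3. Wilson 95% intervals of these shares, which hold counting error alone, had half-widths of at most 0.0157 percentage points. CYP11A1 1 lay above both controls and CYP11A1 2 and 3 lay below them, so the groups overlapped. The mean was 6.74% ± 0.229 (SD, n = 2) in controls and 5.57% ± 1.34 (SD, n = 3) in the CYP11A1 group. This difference was not larger than the spread between libraries (two-sided exact permutation test, p = 0.6, adjusted p = 0.6 over the 2 shares tested here), and 0.2 is the smallest p that 2 libraries against 3 allow. In such bulk RNA, fewer cells of a type and less RNA per cell cannot be told apart.

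mt-Nd1 and mt-Nd2 supplied most of these reads. Both encode membrane arm subunits, ND1 at the junction with the ubiquinone site and ND2 in the proton-pumping part. mt-Nd1 had 407891 counts in control 1, 374717 in control 3 and 401787, 369155 and 327071 in CYP11A1 1, 2 and 3, and it ranked between the 6th and the 8th most counted feature in each library. mt-Nd2 had 357268 and 174411 counts in the controls and 287752, 116021 and 183573 in CYP11A1 1, 2 and 3. Together they made up from 81.4% (control 1) to 89.5% (CYP11A1 2) of the reads on the 7 genes. Scaled by library total, the highest value of mt-Nd1 was 1.58 times the lowest and that of mt-Nd2 was 2.38 times. After TMM normalization these ranges were 2.80-fold and 5.19-fold, with CYP11A1 1 highest for both genes.

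**Figure D1:**
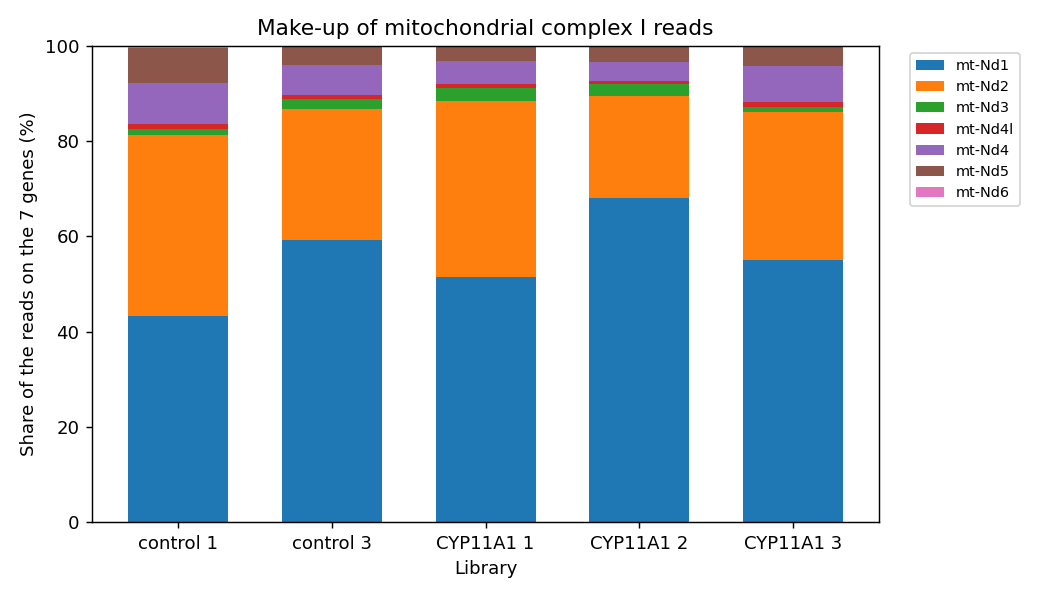
Share (%) of the reads on the 7 mitochondrial complex I genes that fell on each gene, as stacked bars, 1 bar per library. mt-Nd1 takes from 43.4% (control 1) to 68.1% (CYP11A1 2), and the smallest segment, mt-Nd6, takes at most 0.408%.

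mt-Nd3 encodes the subunit whose loop lies near the ubiquinone site and differs between the active and resting forms of the enzyme. Its counts were 10971 and 12736 in the controls and 21592, 13516 and 6674 in CYP11A1 1, 2 and 3. It was highest in CYP11A1 1 and lowest in CYP11A1 3, so that both extremes belonged to one group. mt-Nd4l and mt-Nd4, a pair of proton-channel arm subunits, had their highest counts in control 1 and their lowest in CYP11A1 2. After TMM normalization mt-Nd4 was still highest in control 1, but mt-Nd4l was highest in CYP11A1 1. The counts of mt-Nd4l were 10403 and 5584 in the controls and 5865, 3661 and 6484 in CYP11A1 1, 2 and 3. Those of mt-Nd4 were 80167 and 40374 in the controls and 37465, 21028 and 45074 in CYP11A1 1, 2 and 3. mt-Nd5 encodes the subunit at the far end of the membrane arm. Its counts were 69808 and 24085 in the controls and 23562, 17698 and 23603 in CYP11A1 1, 2 and 3, and control 1 had the highest count. After TMM normalization control 1 was still the highest, and the highest value was 4.25 times the lowest, in CYP11A1 2.

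mt-Nd6, the light strand gene, was the least counted of the 7 in every library. Its counts were 3833 and 1106 in the controls and 1526, 723 and 994 in CYP11A1 1, 2 and 3. Among all features it ranked 310th in control 1 and 1009th in CYP11A1 3, so it was still among the more abundant messengers. The cDNA kit named in the methods does not mark the strand, so reads from mt-Nd6 and from heavy strand RNA opposite to it cannot be told apart. The rules by which reads shared by overlapping genes, or by nuclear copies of mitochondrial sequence, were counted are not given in the sources used here, and the split between mt-Nd4l and mt-Nd4 is uncertain for that reason.

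Levels were compared between genes per length, as FPKM. The mean level over the 5 libraries was 34573 ± 5955 FPKM for mt-Nd1, 18346 ± 6676 for mt-Nd2, 3376 ± 1593 for mt-Nd3 and 2739.8 ± 1029.8 for mt-Nd4 (SD, n = 5). It was 1827 ± 508 for mt-Nd4l, 1446 ± 777 for mt-Nd5 and 261 ± 166 for mt-Nd6. The level of mt-Nd1 was above that of mt-Nd2 in 5 of 5 libraries, by 1.24-fold in control 1 and up to 3.46-fold in CYP11A1 2. mt-Nd2 was above mt-Nd3 in 5 of 5, by 2.88-fold to 10.9-fold. The gap between these leading genes and the rest was thus wide in every library.

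Of the neighbours further down, 2 pairs were not in the same order in every library. mt-Nd3 was above mt-Nd4 in 3 of 5 libraries, and its FPKM was from 0.542 times that of mt-Nd4 in control 1 to 2.55 times in CYP11A1 2 (two-sided exact sign-flip permutation test on the log2 ratios, p = 0.625). mt-Nd4l was above mt-Nd5 in 4 of 5, with control 1 as the exception (the same test, p = 0.125). mt-Nd4 was above mt-Nd4l in 5 of 5 libraries, by 1.24-fold to 1.66-fold. mt-Nd5 was above mt-Nd6 in 5 of 5, by 4.38-fold to 6.94-fold. For the 4 neighbouring pairs ordered alike in all libraries the exact sign-flip p was 0.0625, the smallest that 5 libraries allow, and the adjusted p over the 6 pairs was 0.0938. Any pair ordered alike in all 5 libraries gives this p, and the order of the genes was taken from these same libraries. The p therefore adds nothing to the counts of libraries. FPKM divides by the whole feature length, which understates short features where reads cannot start near the end, and mt-Nd3 and mt-Nd4l are the shortest of the 7.

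**Figure D2:**
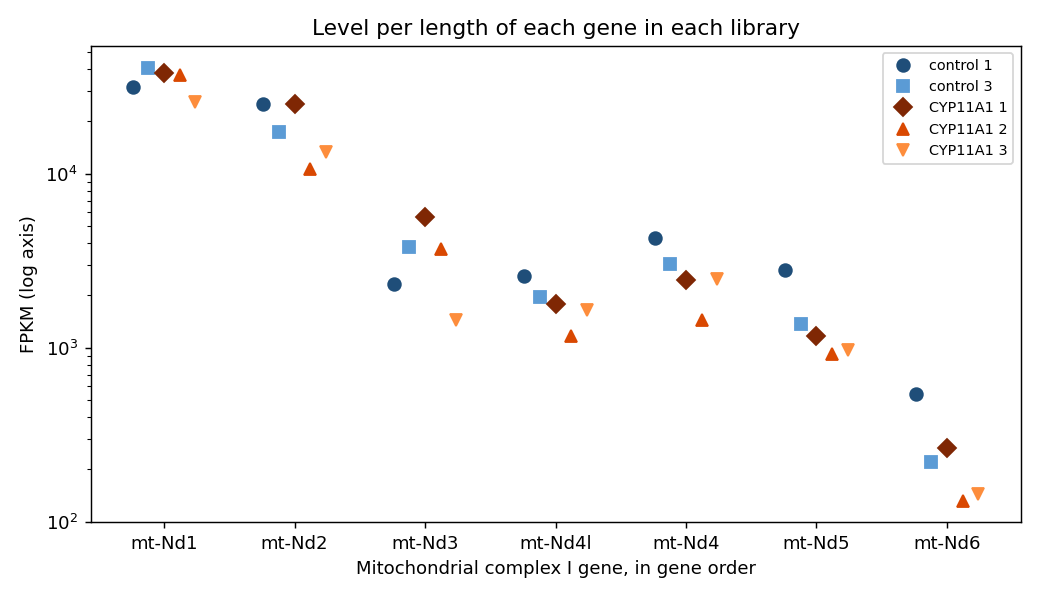
FPKM (log axis) of each gene in each library, with the genes in their order on the genome. All 5 libraries place mt-Nd1 above mt-Nd2 and mt-Nd6 lowest, and for 3 of the 7 genes (mt-Nd4l, mt-Nd4 and mt-Nd5) the 3 CYP11A1 points lie below both control points, as for 7.35% of all features on this scale, whereas after TMM normalization this holds for 0 of the 7.

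The spread of the distance from the highest to the lowest gene was large. The ratio of mt-Nd1 to mt-Nd6 in FPKM was 57.8 in control 1, 184 in control 3 and 143, 277 and 179 in CYP11A1 1, 2 and 3. Control 1 had the lowest ratio, and there mt-Nd1 was 11.2 times mt-Nd5 against 26.6 to 40.0 times in the other 4 libraries.

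The CYP11A1 group was then compared with the controls, gene by gene, in a fit across all features. By edgeR, with p-values adjusted over all features (Benjamini-Hochberg), none of the 7 genes passed the threshold of 0.05, and none had an unadjusted p under 0.05 either. All 7 passed the filter on low counts, as did 10346 features in all, of which 0 (0%) were called and 441 (4.26%) had an unadjusted p under 0.05. DESeq2 also called none of the 7, adjusted or not, where 11 of all features (0.106%) were called and 390 (3.77%) had an unadjusted p under 0.05. The fitted log2 difference (CYP11A1 minus control) was below 0 for 5 of the 7, and its median was -0.38 against 0.15 over all features tested.

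With TMM, the largest fitted difference was that of mt-Nd5, with a log2 value of -0.88 ± 0.69 (SE), a 95% interval from -2.38 to 0.62 and an adjusted p of 0.9998 in edgeR's test. mt-Nd6 had -0.82 ± 0.82, with an interval from -2.60 to 0.96. mt-Nd4 had -0.60 ± 0.69 and mt-Nd4l had -0.38 ± 0.70. For mt-Nd1 and mt-Nd2 the values were 0.07 ± 0.65 and -0.09 ± 0.75, with intervals from -1.36 to 1.49 and from -1.73 to 1.55. mt-Nd3 was the one gene with a larger positive value, 0.55 ± 0.82, and an interval from -1.24 to 2.34. For mt-Nd4 the interval ran from -2.10 to 0.89. The intervals of mt-Nd1, mt-Nd2, mt-Nd3 and mt-Nd4l include changes of more than 2-fold in either direction. Those of mt-Nd4, mt-Nd5 and mt-Nd6 include a fall of more than 2-fold but not a rise of 2-fold. A fall of 2-fold was thus not excluded for any of these genes, nor was a rise of 2-fold for mt-Nd1, mt-Nd2, mt-Nd3 and mt-Nd4l.

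**Figure D3:**
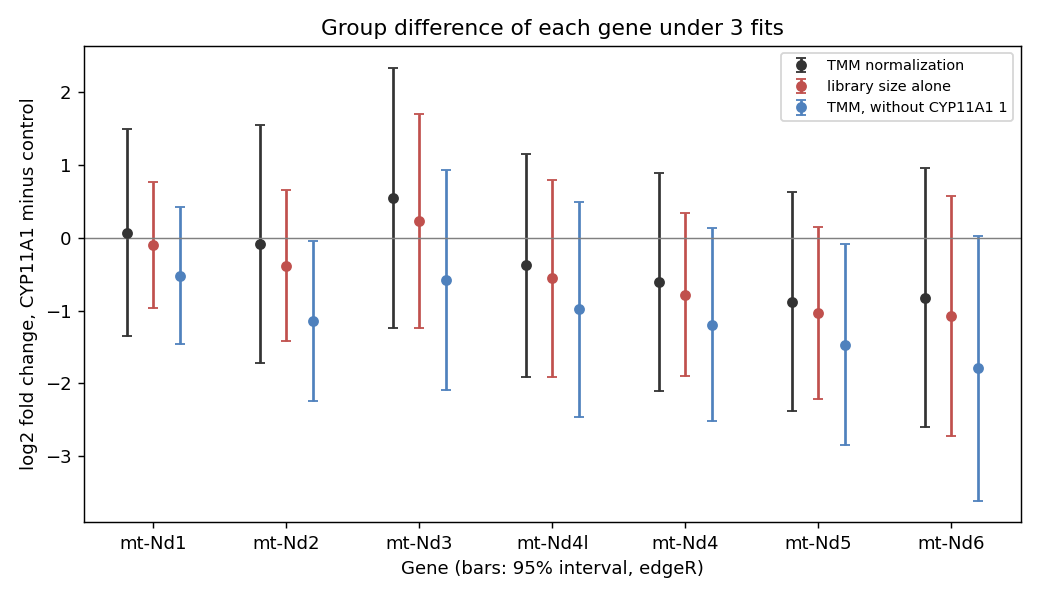
Fitted log2 fold change (CYP11A1 minus control) of each gene, with 95% intervals from edgeR, under TMM normalization, library size alone, and TMM without CYP11A1 1. With all libraries every interval spans 0, and without CYP11A1 1 all 7 values lie below 0.

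On the scale of the deposited FPKM, which uses library totals alone, 3 of the 7 genes were lower in every CYP11A1 library than in either control. For mt-Nd4 the FPKM were 4270 and 3044 in the controls and 2462, 1452 and 2471 in CYP11A1 1, 2 and 3. For mt-Nd5 they were 2799.8 and 1368 against 1166, 920.2 and 974, with means of 2084 ± 1013 (SD, n = 2) and 1020.1 ± 129 (SD, n = 3). For mt-Nd4l they were 2571 and 1954 against 1788, 1173 and 1649. Of all features tested, 7.35% were separated in this direction on this scale. With TMM normalization none of the 7 was separated, against 7.91% of all features, and CYP11A1 1 lay above control 3 for all 3 of these genes. With library size alone in the fit, mt-Nd5 had a log2 difference of -1.03, an unadjusted p of 0.0810 and an adjusted p of 0.9999 (edgeR's quasi-likelihood test).

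The normalized values moved with single libraries. Without CYP11A1 1 all 7 log2 differences were below 0, from -0.52 for mt-Nd1 to -1.80 for mt-Nd6, and the median was -1.14 against 0.042 over all features. In that fit mt-Nd2 and mt-Nd5 had unadjusted p of 0.0425 and 0.0404, with log2 values of -1.14 and -1.47, and both had an adjusted p of 0.9997 in edgeR's test. Of the 9999 features tested in that fit, 369 (3.69%) had an unadjusted p under 0.05. Without control 1 the values lay between -0.27 (mt-Nd4) and 0.27 (mt-Nd2), and that of mt-Nd5 was -0.20. With both control 1 and CYP11A1 3 left out, mt-Nd5 was at -0.014 and only 2 of the 7 values were below 0.

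Ratios between the genes within a library need no scaling between libraries. Of the 21 pairs of the 7 genes, the steadiest was mt-Nd4l with mt-Nd4, with an SD of the log2 ratio over the 5 libraries of 0.16. Whether their shared RNA bears on this was not tested, and the split of reads between them is uncertain. mt-Nd5 with mt-Nd6 came next, with an SD of 0.28. mt-Nd2 with mt-Nd4l followed at 0.31, and mt-Nd4 with mt-Nd5 at 0.32. For every other gene except mt-Nd1, the least steady partner was mt-Nd3, with SDs from 0.80 (with mt-Nd2) to 1.07 (with mt-Nd6). For mt-Nd1 it was mt-Nd6 (SD 0.84), and mt-Nd3 was steadier (0.52).

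**Figure D4:**
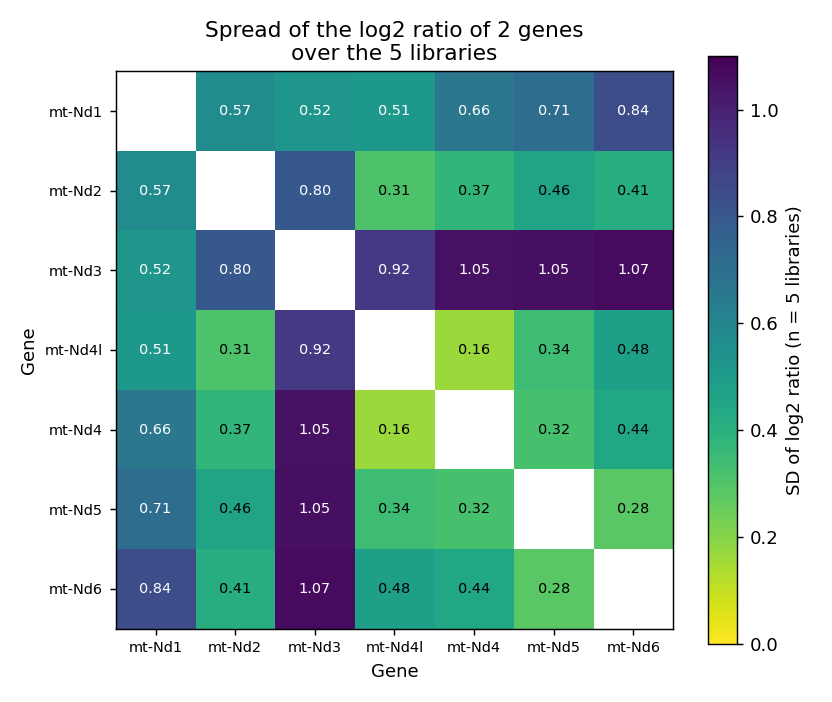
SD of the log2 ratio of each pair of genes over the 5 libraries, as a grid in which a lighter colour means a steadier ratio. The pair mt-Nd4l and mt-Nd4 is steadiest (0.16), and the pair mt-Nd3 and mt-Nd6 has the highest value (1.07).

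These spreads were set beside those of the other features that reached 10 counts in each library. Against mt-Nd4, 1 of the 4776 other features had a steadier ratio than mt-Nd4l, and the median SD of all was 1.17. Against mt-Nd6, 2 of 4776 were steadier than mt-Nd5, with a median SD of 1.38. For mt-Nd2 the number steadier than its nearest member was 9 and for mt-Nd3 it was 132. The number was highest for mt-Nd1, with 459 features steadier than its nearest member, mt-Nd4l (SD 0.51). For each of the 7 genes, all 6 others had an SD under the median of all features. These features were not matched to the 7 genes in counts, and highly counted features varied less between libraries. In counts scaled by library total, the median coefficient of variation was 80.3% over the 10346 features tested. It was 47.6% over the 516 features whose mean count was at least that of mt-Nd6, the least counted of the 7. The 7 share a genome and these 5 libraries, and the values are a description of them.

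The variation of each gene across libraries was compared with that of the 516 features whose mean count was at least that of mt-Nd6. This set holds the 7 genes themselves and was not matched to the counts of each gene. In counts scaled by library total, 5 of the 7 genes had a coefficient of variation below the median of those features, 47.6%. After TMM normalization 2 of the 7 were below a median of 47.0%.

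The ratios between the genes were then compared between the groups. The groups did not overlap in 2 of the 21 pairs (9.52%), against 14.6% of all pairs of features that reached 10 counts in each library. In the first, the FPKM of mt-Nd4 was 1.66 and 1.56 times that of mt-Nd4l in the controls and 1.38, 1.24 and 1.50 times in CYP11A1 1, 2 and 3. In the second, the counts of mt-Nd2 were 93.2 and 158 times those of mt-Nd6 in the controls and 189, 160.5 and 185 times in CYP11A1 1, 2 and 3. For both, the two-sided exact permutation test gave p = 0.2, the smallest the design allows, and an adjusted p of 0.7 over the 21 pairs.

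The light strand gene was also expressed as a share of the reads on the 7 genes. mt-Nd6 had 4.08 per 1000 such reads in control 1, 1.75 in control 3 and 1.96, 1.33 and 1.67 in CYP11A1 1, 2 and 3. Control 1 alone stood apart, and control 3 lay within the range of the CYP11A1 libraries. The means were 2.91 ± 1.65 (SD, n = 2) in controls and 1.66 ± 0.312 (SD, n = 3) in the CYP11A1 group (two-sided exact permutation test, p = 0.4, adjusted p = 0.6 over the 2 shares tested). The CYP11A1 mean was 0.569 times the control mean, and 0.948 times without control 1. Against mt-Nd5 in place of all 7 genes the ratio of the means was 0.977.

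The features most like the 7 genes over the 5 libraries were found by the root mean square difference between their centred log2 normalized counts and the mean of the 7. The closest was Novel00371, a feature of 308 bp that carries no Ensembl identifier. It had 5033 and 3348 counts in the controls and 4363, 2469 and 2898 in CYP11A1 1, 2 and 3, with a difference of 0.13 log2 units. The next 4 had differences from 0.15 to 0.20. The 7 genes themselves lay between 0.19 (mt-Nd4l) and 0.66 (mt-Nd3) from their own mean, and the median of the other 4770 features was 1.02. Each of the 7 is part of the mean it was measured against, which brings it nearer by construction. The other features were not matched in counts, so these values do not show that the 7 are more alike than other features.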

How the data were processed

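Microglial RNA from offspring of control and CYP11A1 dams was sequenced. The study reports 3 per group, whereas the data used here hold 2 control and 3 CYP11A1 libraries. The methods describe cDNA made with a kit for low RNA input, and the labels name a small RNA kit. The authors deposited raw read counts per feature and FPKM. The submitters' processing notes name HISAT2 2.0.4 and HTSeq 0.9.1, and the genome build and annotation are not given in the sources used here. Every deposited FPKM above 0 (70558 values) gave a whole-number length within 0.01 bp, so it scales counts by library total and length only.

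Counts were compared by edgeR 4.0.16 (filterByExpr with a minimum count of 10, TMM, glmQLFit, glmQLFTest; R 4.3.3), with Benjamini-Hochberg adjustment over all features tested. The code was tested on simulated data. Shares were compared by exact permutation tests in scipy 1.17.1. Alternatives used DESeq2 1.42.0 and limma 3.58.1, the latter after adding 1 or 0.1 to each FPKM and taking log2.

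The members and lists were chosen with earlier results of these data known. All 7 genes are named, and the 5 features most alike were ranked by a rule. Lists of nuclear complex I genes and cell markers were not run, since 0 of 35495 identifiers matched a symbol.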

Additional observations from a re-analysis of the deposited data

How the results depend on the processing

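None of the 7 genes was called at an adjusted p under 0.05 in edgeR, and this count was 0 in each of the 17 other fits, DESeq2 and limma included. A count of 0 under each setting does not show that the levels were alike. At an unadjusted p under 0.05 the count was 0 with edgeR (4.26% of all features) and 2 (mt-Nd2 and mt-Nd5) without CYP11A1 1, where 369 of 9999 features (3.69%) passed. The lowest adjusted p of any of the 7 over these fits was 0.645.

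Of the 119 alternative log2 differences (CYP11A1 minus control), 104 kept their sign and 15 changed it. The cause was not tested. mt-Nd1 changed sign with library size alone (-0.10), limma with either pseudocount (-0.11 for both), the replicate block (-0.048) and the crossed pairing (-0.048), both of which drop CYP11A1 2, and it ranged from -0.52 to 0.35 with each library left out. mt-Nd2 ranged from -1.14 to 0.27 in that way, mt-Nd3 from -0.59 to 1.01 and mt-Nd6 from -1.80 to 0.047. With control 1 and CYP11A1 3 left out, which was chosen after seeing the data, mt-Nd2 was at 0.56, mt-Nd4l at 0.024 and mt-Nd6 at 0.34. The values of mt-Nd4 and mt-Nd5 stayed below 0 in all 17, between -1.20 and -0.19 and between -1.47 and -0.014. Fits that left out a control rest on 1 control library, which was assumed to vary like the other group.

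The share of mt-Nd6 (CYP11A1 over control, 0.569) was 0.977 when set against mt-Nd5, and from 0.406 to 0.948 with a library left out. The share of all 7 genes (0.826) lay between 0.715 and 0.928. Same-numbered libraries did not vary together across 10346 features (r = -0.27). The replicate block, fitted on libraries 1 and 3 of each group, gave 101 features at an unadjusted p under 0.05 and the crossed pairing 355, with 0 called in both. Without a block the same 4 libraries gave 402 of 8871 features, and all 5 libraries gave 441 of 10346. Over all features, DESeq2 called 11, edgeR without a filter 10, and the other fits 0. Scaling without mitochondrial features, mitochondrial rRNA or the other mitochondrial protein genes, and every alternative for nuclear complex I genes, were not run, since those features could not be identified. Leaving the 7 genes, or the 100 most counted features, out of the scaling was added after seeing the data. Each of the 7 genes had at least 723 counts in every library.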
